A study of Mus musculus with 16 samples.

Results

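The genes followed here are 40 genes of the cell cycle and of proliferation, measured in the epidermis of the mouse footpad. They were taken as a list of symbols that spans DNA replication, the cyclins with their kinase, and mitosis, picked by their known roles. All 40 were found, each as 1 row among the 50600 rows of the deposited table of raw read counts, and all 40 were among the 22155 genes with at least 10 reads in total that were tested.

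RNA was sequenced from epidermal cells of female C57/B6J mice in 4 groups of 4 libraries. From 5 weeks of age and for at least 3 weeks before the experiment, the mice ate a purified diet that is poor in ligands of the aryl hydrocarbon receptor (AhR), a transcription factor activated by small molecules from food, microbes and pollutants. This AhR-poor diet was given either unchanged or with 200 ppm of indole-3-carbinol (I3C), a plant compound whose products activate the receptor. Each mouse was injected in the footpad with 50 µl of phosphate buffered saline, with 50 µg of papain, a plant protease and allergen, or without it (vehicle), and the epidermis was taken 6 h later. The epidermis was split from the dermis with dispase and dead cells were removed, so that the libraries come from mixed living epidermal cells, mostly keratinocytes. The groups therefore were I3C diet with vehicle (libraries T108 to T111), I3C diet with papain (T106, T113, T114 and T115), AhR-poor diet with vehicle (T100 to T103) and AhR-poor diet with papain (T104, T105, T107 and T112). No group without injection was sequenced, so that the wound made by the needle is shared by all 16 libraries.

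In the epidermis, division is mostly a property of the basal layer, whose keratinocytes renew the tissue and stop dividing as they move up and differentiate. A dividing cell first licenses its replication origins by loading the MCM helicase, then copies its DNA in S phase under the transcription factors of the E2F family, and in G2 and mitosis turns on a further set of genes for the spindle, the kinetochore and cytokinesis, driven by the MuvB complex with B-Myb and by FoxM1. The members were grouped by these roles: 14 of S phase roles (licensing, origin firing, DNA synthesis and nucleotide supply), 18 of mitotic roles (mitotic kinases, spindle checkpoint, kinetochore, spindle motors, chromosome structure), 6 cyclins or cyclin kinases and 2 transcription factors.

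The libraries held 22500821 to 51844375 reads assigned to genes, and no member had fewer than 84 reads in any library. For most members counting error was small beside the spread between libraries. It was not for some low members, as for Ccne2 at 8.38 ± 0.398 CPM (SD) after papain on the I3C diet. Levels are given as CPM (counts scaled to a common library size), scaled by TMM factors of 0.937 to 1.07. Library T103 (AhR-poor diet, vehicle) was the lowest of its group in 40 of 40 members and T107 (AhR-poor diet, papain) in 39 of 40. T111 (I3C diet, vehicle) was the highest of its group in 16 of 18 mitotic members, and T113 (I3C diet, papain) in 18 of 18. T104 (AhR-poor diet, papain) was also the highest in 18 of 18, and T110 (I3C diet, vehicle) the lowest in 18 of 18. In a principal component analysis of the genes that varied most between libraries, T106 and T112 stood apart from the other papain libraries of their own diet, towards those of the other diet. Many counts and medians over the 40 members are also given with single libraries left out. Those by role and those of the other gene lists come only from the fit to all 16 libraries.

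On the I3C diet, most cell cycle genes were lower 6 h after papain than after vehicle, and the mitotic genes fell the most. At an adjusted p under 0.05 at any fold change, 29 of the 40 members fell and 1, Mcm4, rose, where 18.4% of all tested genes fell and 16.9% rose. At an adjusted p under 0.01 with a change of more than 1 on the log2 scale, 9 members fell and 0 rose, beside 5.29% and 3.69% of all genes. The median log2 fold change of the members was -0.74, with 35 of 40 below 0, and that of all genes was -0.04. The members' median was -0.63 without T111, -0.84 without T110 and -0.91 without T113. The 4 papain libraries lay entirely below the 4 vehicle libraries in 27 members and entirely above them in 2 (17.3% and 16.2% of all genes). Since the RNA came from mixed cells, fewer dividing cells and less of these RNAs per cell cannot be told apart.

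On the AhR-poor diet the same comparison moved fewer members. At an adjusted p under 0.05, 10 of the 40 fell and 2, Mcm2 and Mcm4, rose, where 15.7% of all genes fell and 17.7% rose. With the added limit of more than 1 on the log2 scale, 0 members fell and 0 rose by edgeR or by DESeq2. The shares of all genes by edgeR were 2.42% and 6.04%. At an unadjusted p under 0.05, however, 16 members were lower and 3 higher, beside 4507 and 4794 of the 22155 tested genes. Those 16 became 10 without T100, T101 or T107, 19 without T104 and 24 without T103. The median of the members was -0.32, with 30 of 40 below 0, beside -0.00 for all genes. The members' median was -0.20 without T100, -0.22 without T107, -0.46 without T103 and -0.48 without T104. The groups did not overlap in 7 members that were lower and 1 that was higher with papain (16% and 17% of all genes). The papain comparisons of the 2 diets share no library. The 10 members that fell on the AhR-poor diet (Kif23, Mki67, Nusap1, Kif20a, Foxm1, Cenpf, Cenpe, Bub1b, Kif11 and Ccnb2) were all among the 29 that fell on the I3C diet.

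**Figure D1:**
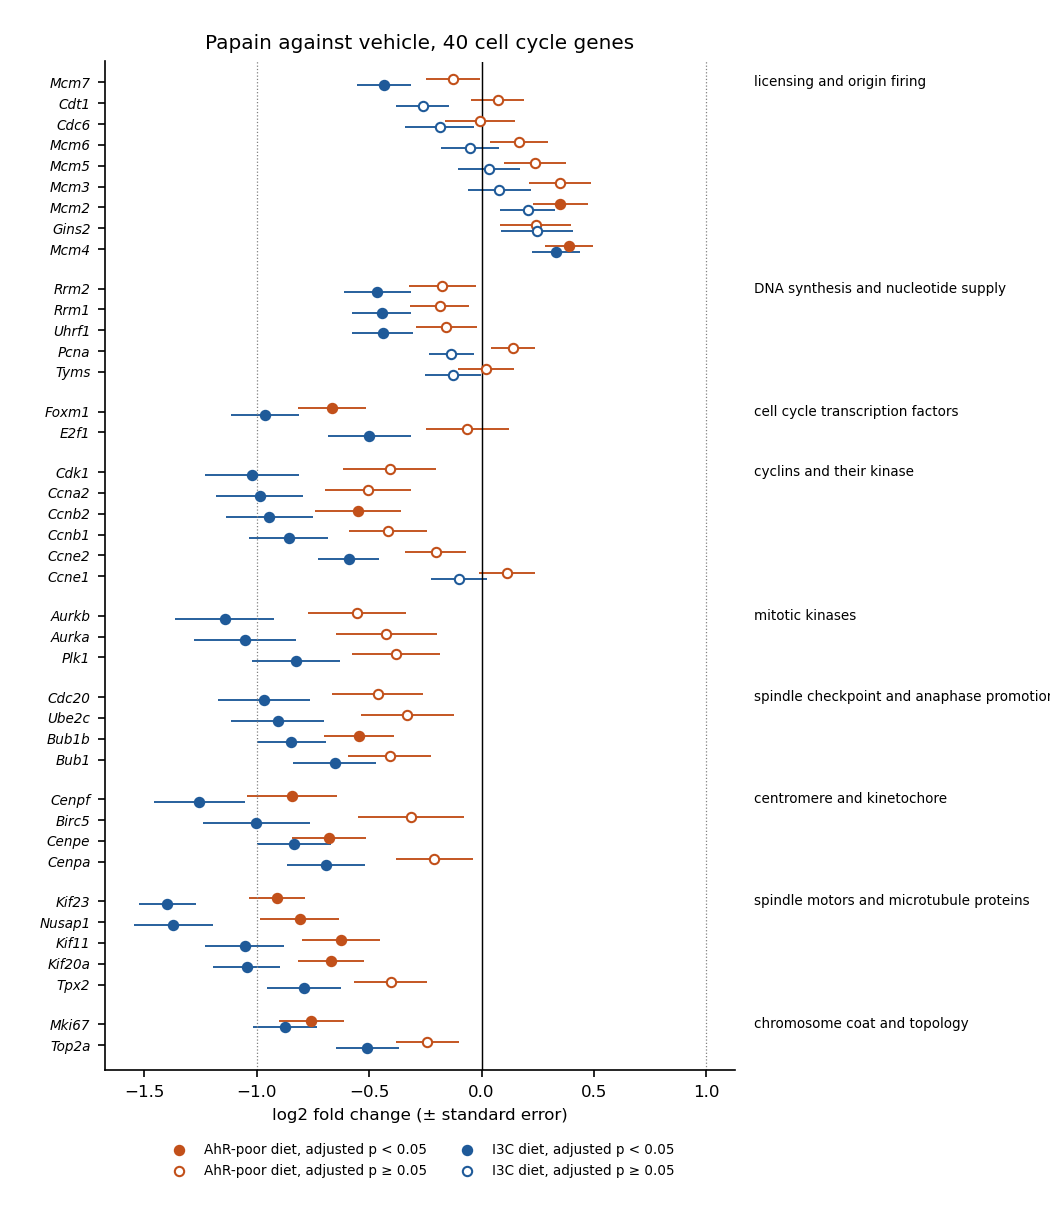
Fitted log2 fold change of papain against vehicle (x axis, ± standard error, 4 libraries a group) for each of the 40 members (y axis, grouped by role), on the AhR-poor diet (orange) and the I3C diet (blue); filled points have an adjusted p under 0.05 and dotted lines mark a change of 1. All 18 mitotic members lie left of 0 on both diets. The licensing genes lie on both sides of 0 on the I3C diet (median 0.03) and mostly right of 0 on the AhR-poor diet (7 of 9, median 0.24).

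The largest falls were those of genes that build the spindle midzone and the kinetochore. Kif23 encodes the motor of the centralspindlin complex, which organises the central spindle and the cleavage furrow. On the I3C diet its level was 75.4, 60.8, 57.5 and 80.3 CPM in the vehicle libraries and 25.99, 32.1, 22.7 and 23.3 CPM in the papain libraries. The lowest vehicle library was well above the highest papain library. The log2 fold change was -1.40 ± 0.13 (SE; edgeR adjusted p = 1.03e-07). On the AhR-poor diet Kif23 was at 61.5, 55.5, 55.8 and 48.4 CPM with vehicle and at 34.0, 29.9, 26.4 and 27.3 CPM with papain, again without overlap. The log2 fold change there was -0.91 ± 0.12 (edgeR adjusted p = 1.79e-05).

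Nusap1, a microtubule-bundling protein of the spindle, showed the same order of groups. On the I3C diet it was at 60.0, 55.6, 44.3 and 71.9 CPM with vehicle against 24.6, 26.6, 18.8 and 19.5 CPM with papain. Without I3C in the food it was at 51.0, 48.4, 43.9 and 31.7 CPM with vehicle and 30.4, 24.4, 19.5 and 25.3 CPM with papain. The groups did not overlap on either diet, though on the AhR-poor diet the low vehicle library T103 came close to the highest papain library. The log2 fold changes were -1.37 ± 0.18 on the I3C diet (edgeR adjusted p = 1.34e-05) and -0.81 ± 0.18 on the AhR-poor diet (edgeR adjusted p = 0.00185).

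Cenpf, a large protein of the outer kinetochore, had levels of 62.3, 50.1, 46.3 and 79.1 CPM with vehicle and 24.3, 33.4, 18.9 and 23.0 CPM with papain on the I3C diet. In mice fed without I3C it was at 45.3, 44.6, 46.9 and 33.01 CPM with vehicle and 29.8, 24.7, 18.5 and 21.4 CPM with papain. Its log2 fold changes were -1.26 ± 0.20 and -0.84 ± 0.20 (edgeR adjusted p = 0.000141 and 0.00411). The groups did not overlap on either diet. Kif20a, a kinesin needed for cytokinesis, was at 67.8, 61.4, 53.4 and 73.7 CPM with vehicle and 31.6, 40.1, 25.5 and 27.2 CPM with papain on the I3C diet, and without I3C at 53.7, 54.9, 50.02 and 43.0 against 35.8, 33.8, 23.5 and 33.4 CPM. Every papain library was below every vehicle library of its diet. It fell by 1.04 ± 0.15 on the log2 scale on the I3C diet and by 0.67 ± 0.15 on the AhR-poor diet (edgeR adjusted p = 2.67e-05 and 0.00190). Part of the Kif20a transcript overlaps Cdc23 on the opposite strand over 1271 exonic bases, and since the strand setting of the authors' counting is not given in the sources used here, its counts may include reads of that gene.

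Mki67 encodes the Ki-67 protein, which coats mitotic chromosomes and is the usual histological marker of cycling cells. On the I3C diet its level was 352, 267, 249.6 and 283 CPM with vehicle and 151, 202, 122 and 152 CPM with papain. On the AhR-poor diet it was 225, 240.1, 239.6 and 198 CPM with vehicle and 153, 144, 106.04 and 131 CPM with papain. Every papain library was below every vehicle library of its diet, the nearest libraries being at 202 and 249.6 CPM on the I3C diet and at 153 and 198 CPM with AhR-poor feed. The log2 fold changes were -0.88 ± 0.14 and -0.76 ± 0.14 (edgeR adjusted p = 0.000106 and 0.000509). Top2a, the topoisomerase that untangles sister chromatids, moved less. It fell on the I3C diet, by 0.51 ± 0.14 on the log2 scale (edgeR adjusted p = 0.00804), while on the AhR-poor diet its log2 fold change was -0.24 ± 0.14 (edgeR adjusted p = 0.207).

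**Figure D2:**
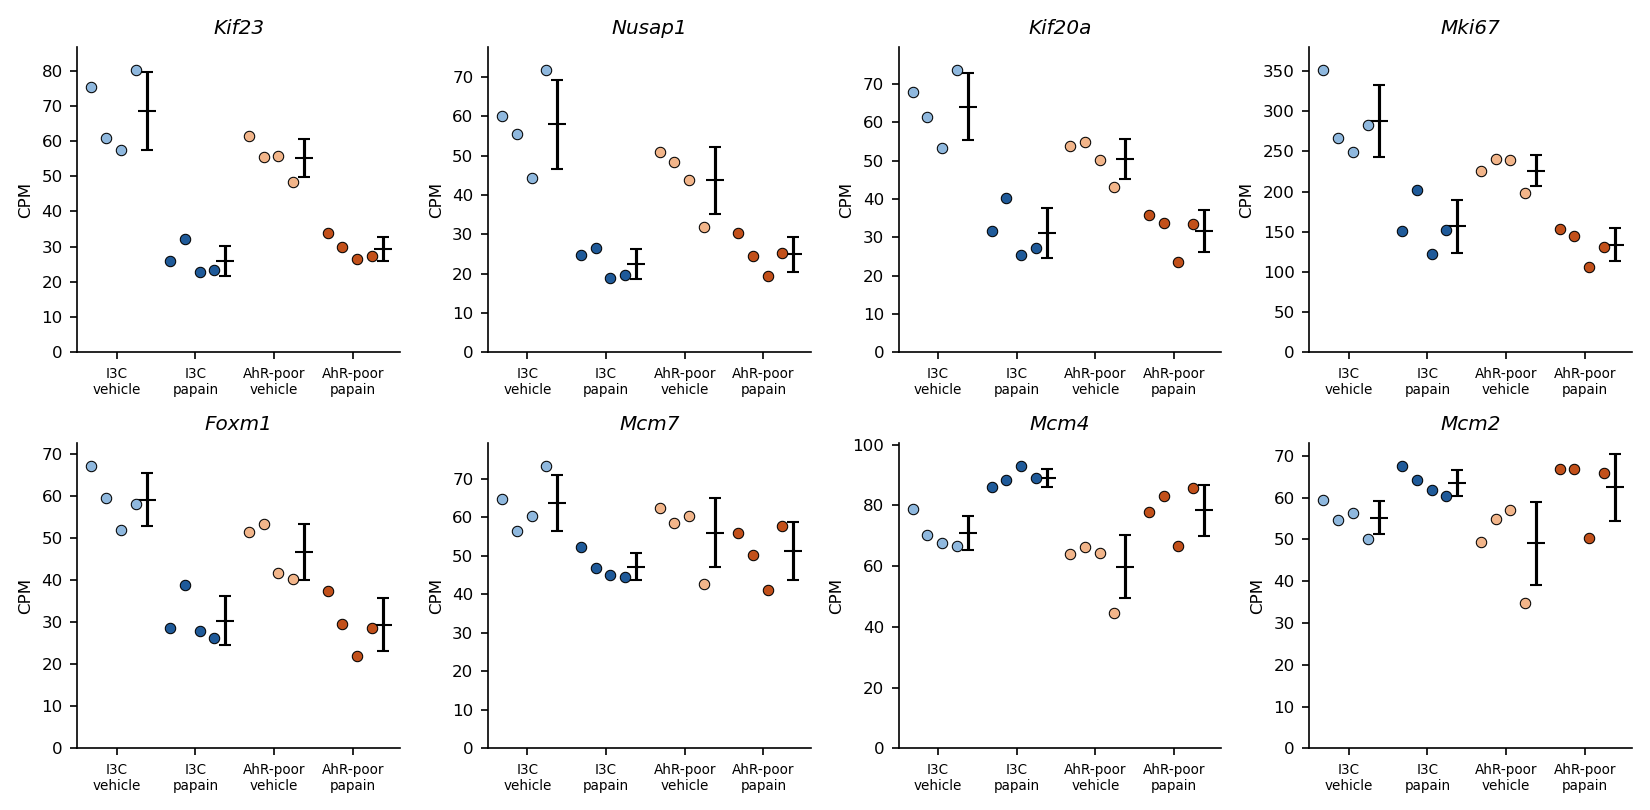
Level in CPM (y axes, from 0) in each of the 16 libraries for 8 members, with the mean ± SD of each group of 4 to the right of its points; Mcm7 was added after its values were seen. The 5 genes of the G2 and mitotic programme (Kif23, Nusap1, Kif20a, Mki67, Foxm1) have papain libraries below the vehicle libraries on both diets, whereas Mcm4 has papain libraries above them.

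The remaining mitotic members went the same way. All 18 fell on the I3C diet at an adjusted p under 0.05, 8 of them also by more than 1 on the log2 scale, with a median of -0.94. Without I3C in the food all 18 had fold changes below 0, with a median of -0.50, and 8 passed the test. Among the kinases, Aurkb, the catalytic subunit of the chromosomal passenger complex, had a log2 fold change of -1.14 ± 0.22 on the I3C diet and -0.55 ± 0.22 on the AhR-poor diet. Aurka, which matures the centrosomes, had -1.05 ± 0.23 and -0.42 ± 0.22, and Plk1, which acts from mitotic entry to cytokinesis, had -0.82 ± 0.20 and -0.38 ± 0.20. All 3 kinases passed the test on the I3C diet and not on the AhR-poor diet, and for none of them did the difference between the diets pass a test.

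In the spindle checkpoint, Bub1b fell on both diets, by 0.85 ± 0.15 and 0.55 ± 0.15 on the log2 scale. Its partner Bub1, and Cdc20 and Ube2c, which activate and serve the anaphase-promoting complex, fell on the I3C diet with log2 fold changes of -0.65, -0.97 and -0.91, and had -0.41, -0.46 and -0.33 on the AhR-poor diet. At the centromere, Cenpe, a kinesin that moves chromosomes to the spindle equator, fell on both diets (-0.83 ± 0.16 and -0.68 ± 0.17). Birc5, the survivin subunit of the passenger complex, fell on the I3C diet (-1.001 ± 0.24, edgeR adjusted p = 0.00406) and had -0.31 ± 0.24 on the AhR-poor diet (edgeR adjusted p = 0.348). Cenpa, the centromeric form of histone H3, had the smallest change among the centromere genes on both diets, at -0.69 ± 0.17 and -0.21 ± 0.17. The spindle motor Kif11 fell on both diets, by 1.05 ± 0.17 and 0.63 ± 0.17, while Tpx2, which activates Aurora A on the spindle, had -0.79 ± 0.16 and -0.40 ± 0.16 and passed the test only with I3C.

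The count of 9 members past a change of 1 on the I3C diet turned on single libraries, because many mitotic members lay near that limit. Without vehicle library T111 it was 3 (Kif23, Nusap1 and Cenpf) and without papain library T113 it was 17, with 14 without T110 and 5 without T114 or T115, whereas at an adjusted p under 0.05 the count of members that fell stayed between 27 and 30 as each of the 16 libraries was left out. Without T106 the counts were 9 and 29, as with it. In mice fed without I3C the count that fell at an adjusted p under 0.05 lay between 9 and 15, with 9 without T112, 9 without T107 and 15 without T103.

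FoxM1 is a transcription factor that activates the G2 and mitotic genes and is itself made in cycling cells. Foxm1 was at 67.2, 59.5, 51.8 and 57.99 CPM with vehicle and 28.5, 38.8, 27.9 and 26.2 CPM with papain on the I3C diet. On the AhR-poor diet it was at 51.4, 53.2, 41.7 and 40.3 CPM with vehicle and at 37.3, 29.4, 22.03 and 28.6 CPM with papain. It fell on both diets, without overlap, by 0.96 ± 0.15 and 0.66 ± 0.15 on the log2 scale (edgeR adjusted p = 7.04e-05 and 0.00225). E2f1, which drives S phase genes, fell on the I3C diet by 0.50 ± 0.18 (edgeR adjusted p = 0.0440) and had -0.06 ± 0.18 on the AhR-poor diet. Its call on the I3C diet was lost in 10 of 23 other settings. Among these was leaving out any single library of that diet except T106.

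Of the cyclins and their kinase, all but Ccne1 fell on the I3C diet. Ccne1, which drives entry into S phase, had log2 fold changes of -0.10 ± 0.12 on the I3C diet and 0.11 ± 0.12 on the AhR-poor diet, neither past the test. Ccne2, its relative, fell on the I3C diet by 0.59 ± 0.14. The S to G2 cyclin Ccna2 and the mitotic cyclins Ccnb1 and Ccnb2 fell on that diet by 0.99 ± 0.19, 0.86 ± 0.18 and 0.94 ± 0.19, and their kinase Cdk1 by 1.02 ± 0.21. Without I3C in the food only Ccnb2 among these 4 passed the test, at -0.55 ± 0.19 (edgeR adjusted p = 0.0379). It lost that call in 12 of 23 other settings, among them without T100, T101, T102, T105, T107 or T112 of that diet. Ccna2, Ccnb1 and Cdk1 had -0.50, -0.42 and -0.41 there.

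The genes of S phase roles did not move as a block. Of the 14, 2 rose and 0 fell on the AhR-poor diet, and 1 rose and 4 fell on the I3C diet, with medians of 0.11 and -0.13. Of all genes, 17.7% rose and 15.7% fell on the AhR-poor diet, and 16.9% rose and 18.4% fell on the I3C diet. With only 14 members, these counts lay near the shares of all genes, and no difference from those shares was tested. Mcm4, a subunit of the replicative helicase, was the member that rose on both diets. It was at 78.8, 70.3, 67.6 and 66.7 CPM with vehicle and 86.2, 88.2, 93.1 and 88.9 CPM with papain on the I3C diet. In mice fed without I3C it was at 64.1, 66.3, 64.4 and 44.5 CPM with vehicle and 77.9, 83.2, 66.6 and 85.6 CPM with papain. The groups did not overlap on either diet, although on the AhR-poor diet the nearest libraries were at 66.3 and 66.6 CPM. The log2 fold changes were 0.33 ± 0.11 and 0.39 ± 0.11 (edgeR adjusted p = 0.0201 and 0.00799).

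Mcm2, another subunit of the same helicase, was at 59.5, 54.6, 56.4 and 50.04 CPM with vehicle and 67.7, 64.2, 61.9 and 60.5 CPM with papain on the I3C diet. On the AhR-poor diet it was at 49.4, 54.9, 56.9 and 34.9 CPM with vehicle and 66.8, 66.9, 50.3 and 65.8 CPM with papain. The groups overlapped on the AhR-poor diet through T107, whereas they did not on the I3C diet. It rose on the AhR-poor diet (0.35 ± 0.12, edgeR adjusted p = 0.0340) and had 0.21 ± 0.12 on the I3C diet (edgeR adjusted p = 0.214). The call on the AhR-poor diet was lost in 5 of 23 other settings, among them without T103, T104, T105 or T112 of that diet. Mcm7, also of that helicase, went the other way on the I3C diet. It was at 64.7, 56.5, 60.2 and 73.4 CPM with vehicle against 52.2, 46.8, 45.0 and 44.5 CPM with papain, without overlap, and fell by 0.43 ± 0.12 on the log2 scale (edgeR adjusted p = 0.00782).

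The other S phase members that fell on the I3C diet were Rrm1 and Rrm2, the subunits of ribonucleotide reductase, and Uhrf1, which carries DNA methylation over to new strands. Their log2 fold changes were -0.44 ± 0.13, -0.46 ± 0.15 and -0.44 ± 0.14, and on the AhR-poor diet -0.19, -0.17 and -0.16, none of which passed the test. Mcm3, Mcm5, Mcm6, the loading factors Cdc6 and Cdt1, Gins2 of the helicase complex, the sliding clamp Pcna and the thymidylate synthase Tyms passed the test on neither diet. Their log2 fold changes lay between -0.26 (Cdt1) and 0.25 (Gins2) on the I3C diet and between -0.01 (Cdc6) and 0.35 (Mcm3) on the AhR-poor diet. Gins2 shares 2758 exonic bases with Gse1 on the opposite strand. Pcna, Tyms, Ccnb1 and Ccnb2 have pseudogenes named after them, and how the authors' counting treated reads that fit both is not given in the sources used here.

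Summed over each role, the levels separated in the same way. The summed CPM of the 18 mitotic members was 1370 ± 227 (SD, n = 4) with vehicle and 746 ± 144 with papain on the I3C diet, and 1070.1 ± 139 and 743 ± 126 on the AhR-poor diet. The ranges were 1115 to 1627 against 632 to 952 CPM on the I3C diet, without overlap, and 866 to 1177 against 587 to 894 CPM on the AhR-poor diet, where T103 and T104 overlapped. The sum of the 14 S phase members was 872 ± 51.4 and 797 ± 44.9 CPM on the I3C diet, and 772 ± 141 and 821 ± 101.3 CPM under AhR-poor feeding, with overlap on both. The 6 MCM genes alone summed to 383 ± 19.3 and 394 ± 20.7 CPM, and to 333 ± 63.5 and 389.6 ± 50.7 CPM.

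Dividing the mitotic by the S phase sum within each library removes the overall level of cell cycle RNA, in which T103 and T107 were low. The ratio was 1.58, 1.46, 1.37 and 1.86 with vehicle and 0.860, 1.17, 0.823 and 0.883 with papain on the I3C diet. Without I3C in the food it was 1.39, 1.33, 1.33 and 1.54 with vehicle and 1.01, 0.876, 0.876 and 0.846 with papain. All 8 papain libraries were below all 8 vehicle libraries, and T103 and T107, low in both sums, lay within or above the range of the other libraries of their groups. The papain groups had nearly the same mean on both diets, 0.935 ± 0.161 and 0.902 ± 0.0739, and the vehicle groups 1.57 ± 0.212 and 1.40 ± 0.101. The ratio is a description over the listed genes, and no test was made of it.

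**Figure D3:**
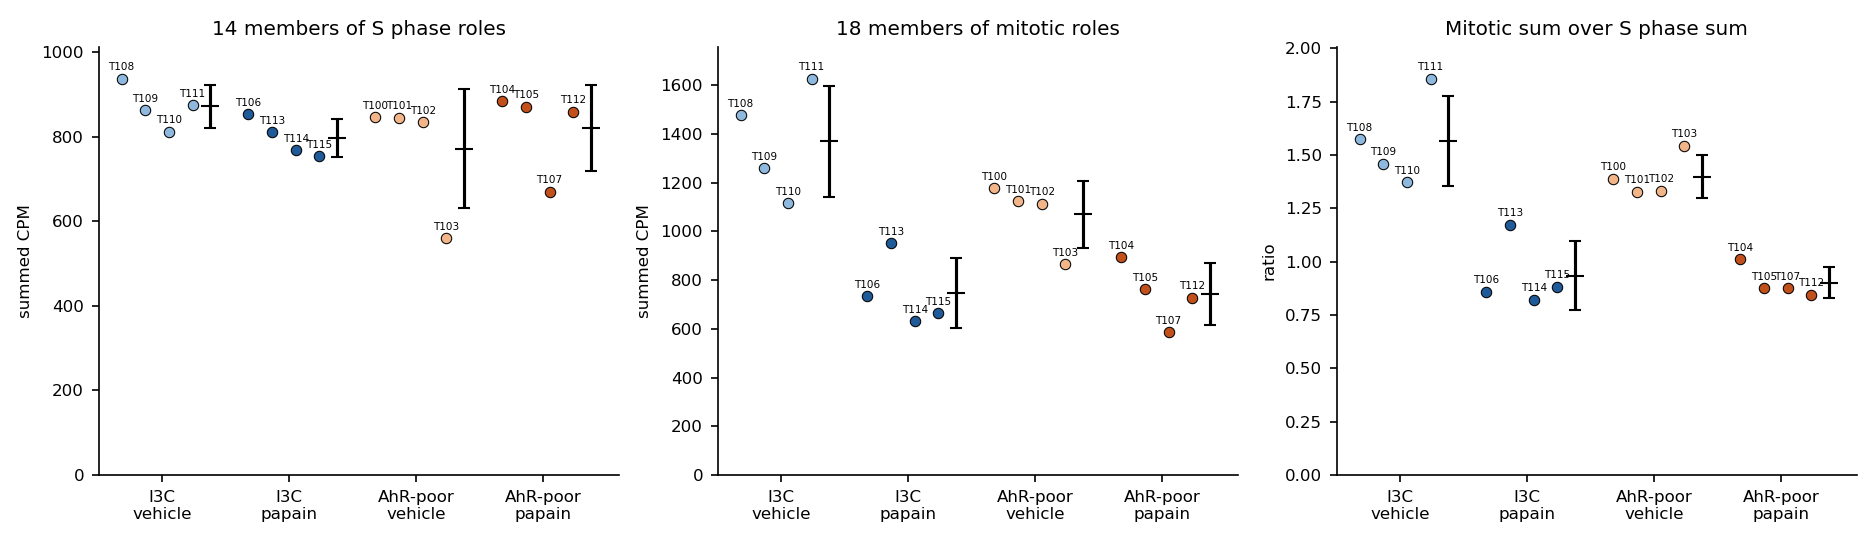
Summed CPM of the S phase members (left) and the mitotic members (middle), and the ratio of the mitotic to the S phase sum (right), in each of the 16 libraries (labelled points) with the mean ± SD of each group of 4. The S phase sums overlap between vehicle and papain on both diets, while every papain ratio (at most 1.17) is below every vehicle ratio (at least 1.33).

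The promoters of the members carry short elements through which the mitotic and the S phase programmes are known to be set apart. The CHR (TTTGAA) is bound by the MuvB complex and, often with CCAAT boxes for NF-Y nearby, is typical of G2 and mitotic genes, whereas the E2F site is typical of genes of G1 and S phase. RefSeq windows (GRCm38.p6) from 250 bases before to 50 bases after the start of the transcript were held for 32 of the 40 members. They are shown for the 4 members with the smallest p in the papain comparison on the I3C diet that have a single window, and for Mcm2, chosen after its values were seen, which did not fall. Printed are the 200 bases before and the first 30 bases after the start, 5′ to 3′ on the coding strand, with capitals for the CHR and for the CCAAT box or, where it lies on the other strand, for ATTGG. No printed matches overlap each other.
Kif23, chr9:61946770-61946999, minus strand: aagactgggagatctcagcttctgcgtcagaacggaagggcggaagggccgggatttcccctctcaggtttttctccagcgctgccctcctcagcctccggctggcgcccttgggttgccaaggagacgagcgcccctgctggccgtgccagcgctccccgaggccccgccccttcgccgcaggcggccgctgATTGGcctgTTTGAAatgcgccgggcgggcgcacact
Nusap1, chr2:119618098-119618327, plus strand: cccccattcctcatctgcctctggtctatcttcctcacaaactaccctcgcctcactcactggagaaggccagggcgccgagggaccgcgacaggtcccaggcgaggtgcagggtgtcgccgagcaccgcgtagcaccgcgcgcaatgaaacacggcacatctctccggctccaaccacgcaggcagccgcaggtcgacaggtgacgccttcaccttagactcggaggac
Mki67, chr7:135716350-135716579, minus strand: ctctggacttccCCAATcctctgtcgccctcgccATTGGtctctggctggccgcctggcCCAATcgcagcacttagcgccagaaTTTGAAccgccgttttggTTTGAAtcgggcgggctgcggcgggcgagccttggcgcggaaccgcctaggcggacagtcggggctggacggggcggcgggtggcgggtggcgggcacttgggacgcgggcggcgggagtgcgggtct
Cenpf, chr1:189688057-189688286, minus strand: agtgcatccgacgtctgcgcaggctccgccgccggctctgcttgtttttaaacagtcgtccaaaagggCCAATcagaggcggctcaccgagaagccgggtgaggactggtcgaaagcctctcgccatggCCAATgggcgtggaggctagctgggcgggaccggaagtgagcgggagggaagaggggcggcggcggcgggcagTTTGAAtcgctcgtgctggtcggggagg
Mcm2, chr6:88898751-88898980, minus strand: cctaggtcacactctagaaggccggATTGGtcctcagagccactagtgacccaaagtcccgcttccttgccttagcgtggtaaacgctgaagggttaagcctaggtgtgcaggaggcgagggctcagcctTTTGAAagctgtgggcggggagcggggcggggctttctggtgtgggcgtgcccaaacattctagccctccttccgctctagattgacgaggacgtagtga

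Mki67 holds 2 CHR and 3 CCAAT matches, Cenpf 1 and 2, and Kif23 1 of each, with the CHR of Kif23 and of Cenpf starting 3 bases into the transcript. Nusap1 has neither in this window, which says only that these letters are not there. Over both strands of the whole windows, TTTGAA was present in 11 of 15 mitotic members with a window, in 1 of 12 S phase members (Mcm2) and in 20.2% of the 27025 genes of the table. CCAAT was present in 13 of 15 mitotic members, 9 of 12 S phase members and 41.1% of all genes. The E2F letters (TTTGGCGC, TTTCCCGC, TTTGCCGC or TTTCGCGC) were present in 0 of 15 mitotic members, in 7 of 12 S phase members and in 704 of the 27025 genes. A match in letters is a description and not a site of binding in these cells.

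**Figure D4:**
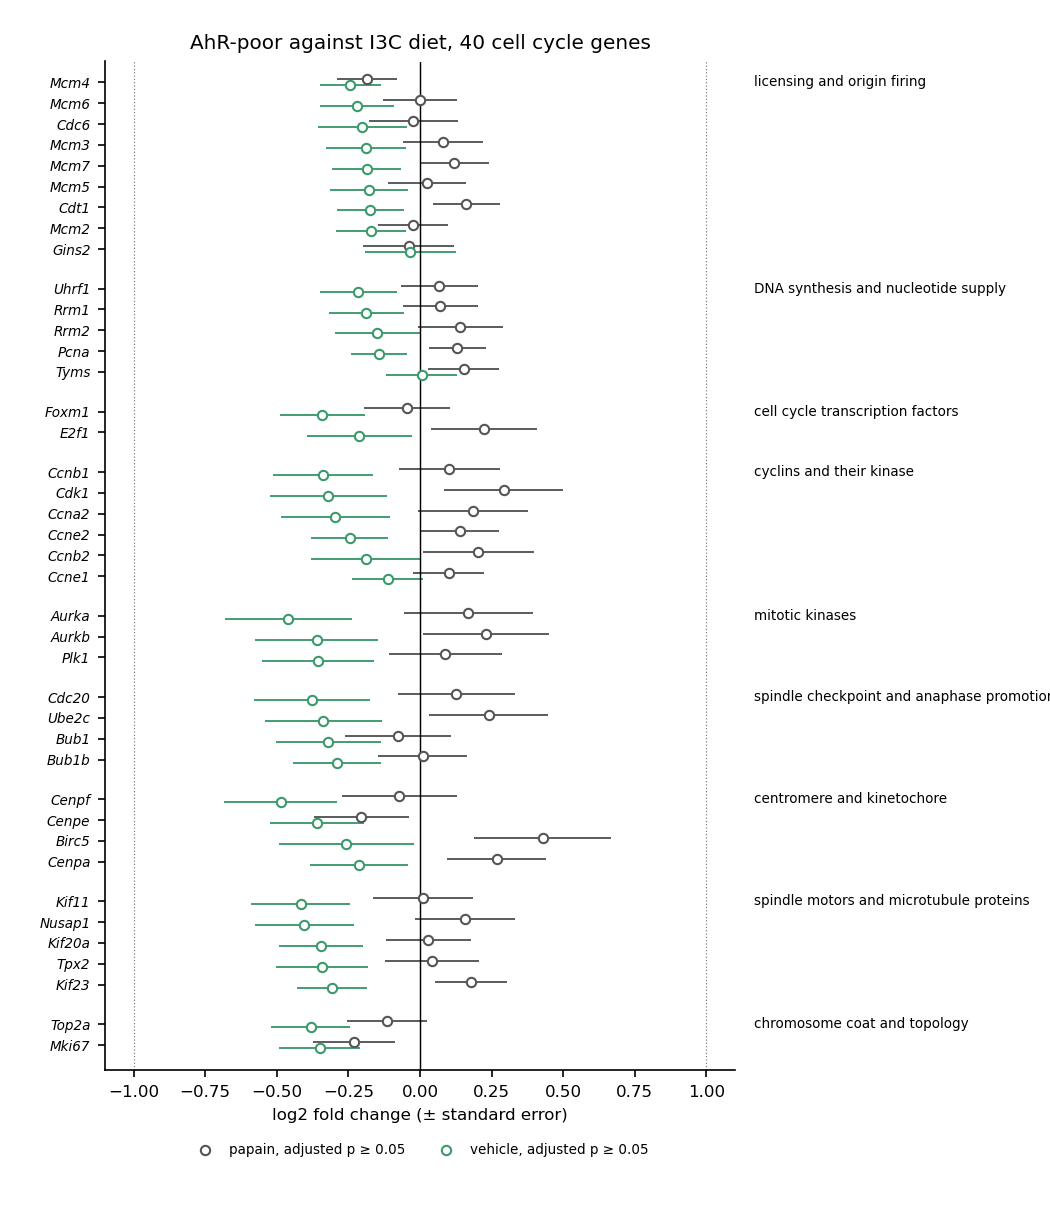
Fitted log2 fold change of the AhR-poor against the I3C diet (x axis, ± standard error, 4 libraries a group) for each of the 40 members (y axis, grouped by role), after vehicle (green) and after papain (grey); open points have an adjusted p of 0.05 or more and dotted lines mark a change of 1. After vehicle 39 of 40 members lie left of 0 and after papain 29 of 40 lie right of 0, and no member passes the test in either.

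The diets were then compared within each treatment. After vehicle, 39 of the 40 members were lower without I3C in the food than with it, with a median log2 fold change of -0.27 beside -0.01 for all genes. None passed an adjusted p under 0.05 by edgeR or DESeq2 (0 higher, where 2.98% of all genes were called, and 0 lower, where 0.0993% were), nor the stricter limits (1.59% and 0.0% of all genes). At an unadjusted p under 0.05, 11 members were lower and 0 higher, beside 784 and 1980 of the 22155 tested genes. The lowest values were those of Cenpf, Aurka and Kif11 (-0.49 ± 0.20, -0.46 ± 0.22 and -0.42 ± 0.17). Top2a was at 243, 218, 188 and 252 CPM on the I3C diet and 197, 186, 171 and 137 CPM under AhR-poor feeding, with 1 AhR-poor library above the lowest I3C library. Its log2 difference was -0.38 ± 0.14 (edgeR adjusted p = 0.207), and those of Mki67 and Kif23 were -0.35 ± 0.14 and -0.31 ± 0.12. The size of this shift depended on few libraries. The median was -0.15 without T103 (38 of 40 below 0), -0.19 without T111 (40 of 40) and -0.37 without T110 (40 of 40). The count of 11 fell to 1 without T103, 1 without T108 and 3 without T111, and was 18 without T110. Without T103, T107 and T111, left out after the data were seen, the median was -0.05, with 34 of 40 below 0. T103 was the lowest of its group in 40 of 40 members and T111 the highest in 25 of 40. Both thus lie on the sides that widen the difference, while T110, the lowest in 33 of 40, was kept. That median is therefore no further evidence that the size of the shift depended on few libraries.

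After papain, the diets were close. The median of the members was 0.09, with 29 of 40 above 0, beside 0.01 for all genes. Single libraries moved that median from 0.006 without T104 (21 of 40 above 0), 0.04 without T114 and 0.04 without T115 to 0.15 without T113 (33 of 40) and 0.18 without T107 (37 of 40). None passed an adjusted p under 0.05 (12.3% of all genes called higher and 8.36% lower without I3C) or the stricter limits (7.15% and 0.0993%). At an unadjusted p under 0.05 there were 0 members, where 3867 of the 22155 tested genes were higher and 3222 lower. With T113 left out 3 members were higher, and with T107 left out 1 was. At that unadjusted limit 1 was lower without T103, 1 lower without T114 and 1 lower in the fit of the compared groups alone. With library size as the only scaling 2 were higher. Birc5 had the largest difference, with 21.6, 27.4, 17.3 and 16.8 CPM on the I3C diet and 36.5, 26.4, 21.2 and 27.3 CPM on the AhR-poor diet. These groups overlapped, and the log2 difference was 0.43 ± 0.24 (edgeR adjusted p = 0.241). Cenpa was at 38.5, 50.5, 30.5 and 30.8 CPM with I3C and at 55.8, 44.3, 40.4 and 40.1 CPM without it, with T113 inside the range of the other group. The log2 differences of Cenpa, Mki67 and Mcm4 were 0.27 ± 0.17, -0.23 ± 0.14 and -0.18 ± 0.11. Without T103, T107 and T111, 3 members (E2f1, Birc5 and Tyms) were higher on the AhR-poor diet at an adjusted p under 0.05, with a median of 0.18. T107 was the lowest of its group in 39 of 40 members, and T104, the highest in 31 of 40, was kept. Leaving out T107 and not T104 raises the difference by that choice, so these calls are no test of it. With library size as the only scaling the median of the members was 0.20, where that of all genes moved to 0.11.

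The larger number of members that fell on the I3C diet was not matched by a difference between the diets that passed a test. The interaction, which is the log2 fold change of papain on the AhR-poor diet minus that on the I3C diet, was above 0 for 39 of the 40 members, with a median of 0.32 beside 0.03 for all genes. None passed an adjusted p under 0.05 by edgeR or DESeq2, where 0.311% of all genes were called above 0 and 0.0181% below, nor the stricter limits (0.0181% and 0.0%). At an unadjusted p under 0.05 there were 2 members, Kif23 at 0.49 ± 0.17 (edgeR adjusted p = 0.251) and Nusap1 at 0.56 ± 0.25 (edgeR adjusted p = 0.340). At that limit 1642 of the 22155 tested genes were above 0 and 1345 below. DESeq2 gave 7 members above 0, beside 1784 genes above 0 and 1172 below. The largest interactions of members were Birc5 at 0.69 ± 0.34, Aurka at 0.63 ± 0.32 and Cdk1 at 0.61 ± 0.29. Among the members Gins2 alone was below 0, at -0.005 ± 0.22. Mki67 was at 0.12 ± 0.20. The unadjusted count moved with single libraries, to 19 without T113, 18 without T107, 16 without T110, 8 without T100 and 6 without T106, and to 1 without any of T103, T104, T105, T108, T111 or T115, with medians from 0.24 (without T103) to 0.45 (without T113). A p that misses the threshold does not show that the diets act alike, and the standard errors leave room for differences of the size of the values themselves.

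The wider machinery was described from lists of other genes of the pathway. Of 51 further mitotic genes, 48 fell and 0 rose on the I3C diet, 21 of them by more than 1 on the log2 scale, with a median of -0.94. In mice fed without I3C 37 fell and 1 rose, with a median of -0.57. Aspm, which focuses spindle poles, had -1.30 ± 0.15 and -1.06 ± 0.15, Ckap2l, a spindle protein, had -1.20 and -0.81, and Espl1, the separase that cuts cohesin, had -1.03 ± 0.10 and -0.82 ± 0.10. The gene that rose there was Lmnb1, which encodes lamin B1 and is named after its values were seen, at 0.61 ± 0.17, whereas it fell on the I3C diet (-0.49 ± 0.17). Its interaction was 1.10 ± 0.24 (edgeR adjusted p = 0.0689). Of 39 further replication genes, 17 fell and 1 rose on the I3C diet (median -0.33), and 5 fell and 2 rose on the AhR-poor diet (median -0.14). Of all genes, 18.4% fell and 16.9% rose on the I3C diet, and 15.7% fell and 17.7% rose on the AhR-poor diet. Both counts of replication genes on the AhR-poor diet were thus below the shares of all genes. The gene that rose on both was Pold1, the catalytic subunit of DNA polymerase delta, at 0.28 ± 0.10 and 0.35 ± 0.10, and Prim1, a primase subunit, and Clspn, an adaptor of the replication checkpoint, fell on both (-0.58 and -0.34 for Prim1, -0.94 and -0.50 for Clspn).

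**Figure D5:**
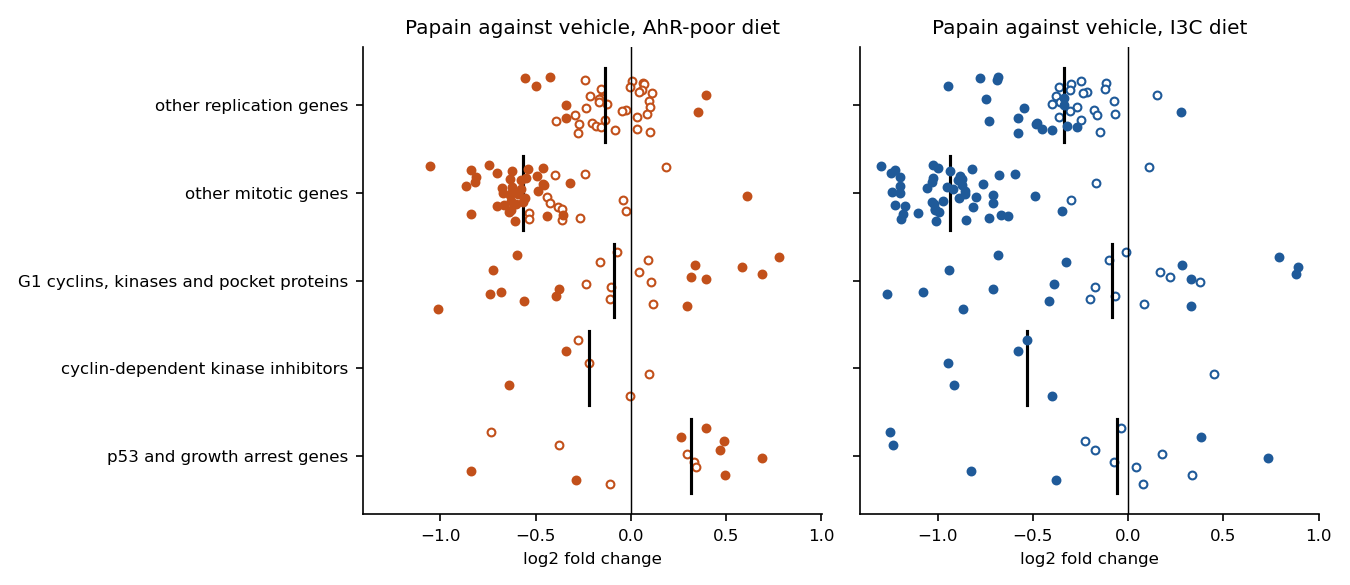
Fitted log2 fold change of papain against vehicle (x axes) for the genes of 5 lists that hold no member (y axis), on the AhR-poor diet (left) and the I3C diet (right), with filled points at an adjusted p under 0.05 and a black bar at the list's median; Cdkn2a, at 0 to 5 reads a library, is counted in the median and not drawn. The mitotic list lies left of 0 on both diets with medians of -0.57 and -0.94, and the G1 list spreads to both sides of 0.

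Upstream of S phase the directions were mixed, and the counts in these lists are to be read beside the 16.9% of all genes that rose and 18.4% that fell on the I3C diet, and the 17.7% and 15.7% on the AhR-poor diet. Of 24 G1 cyclins, kinases and pocket proteins, 6 rose and 9 fell on the I3C diet, and 7 rose and 8 fell on the AhR-poor diet. Cyclin D1 (Ccnd1), which links growth signals to the cycle, was at 259.6, 221, 206 and 152 CPM with vehicle and 195, 235, 209.6 and 190.0 CPM with papain on the I3C diet, with full overlap. Its log2 fold changes were -0.01 ± 0.15 and -0.07 ± 0.15. Myc, a growth factor-induced transcription factor, fell on both diets, by 1.07 ± 0.15 and 0.68 ± 0.15 on the log2 scale (edgeR adjusted p = 1.70e-05 and 0.00143). E2f4, the E2F of the repressive complexes, rose by 0.88 ± 0.07 and 0.69 ± 0.07, and Cdk6, a partner of the D cyclins, rose by 0.89 ± 0.08 and 0.58 ± 0.08. Tfdp2, a partner of the E2F proteins, fell by 0.86 ± 0.09 and 1.01 ± 0.09.

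The inhibitors of the cyclin-dependent kinases did not rise with papain. Of 7 listed, 5 fell on the I3C diet and 2 on the AhR-poor diet. Cdkn1a, which encodes p21 and is the classical brake induced by p53, was at 489, 397, 378 and 443 CPM with vehicle and 307, 279, 301 and 294 CPM with papain on the I3C diet. It fell there by 0.53 ± 0.11 (edgeR adjusted p = 0.000830) and had -0.28 ± 0.11 on the AhR-poor diet (edgeR adjusted p = 0.0592). Cdkn1b, which encodes p27, fell by 0.58 ± 0.09 and 0.34 ± 0.09, and Cdkn2c by 0.91 ± 0.10 and 0.64 ± 0.09. Cdkn1c and Cdkn2d fell on the I3C diet, by 0.95 ± 0.16 and 0.40 ± 0.14, and had -0.22 and -0.01 on the AhR-poor diet. Cdkn2b had 0.45 and 0.09 and did not pass the test. Cdkn2a had between 0 and 5 reads in every library and is given no fold change. Of 14 p53 target and growth arrest genes, 2 rose and 4 fell on the I3C diet, and 6 rose and 2 fell on the AhR-poor diet. The counts of both lists, too, are to be read beside the shares of all genes given with the G1 list. Phlda3 and Ccng1 rose on both (0.74 and 0.69 for Phlda3, 0.38 and 0.26 for Ccng1), Sesn1 fell on both (-0.83 and -0.84), and Gadd45b fell on the I3C diet (-1.23 ± 0.21).

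The cell types in the suspension moved with the same contrasts, and their part in the results was not tested. The summed level of 9 basal keratinocyte markers was 30597 to 38980 CPM with vehicle and 24730 to 27581 CPM with papain on the I3C diet, and 24764 to 30763 against 21693 to 26417 CPM on the AhR-poor diet. Of these 9, 4 fell and 2 rose on the I3C diet and 3 fell and 1 rose on the AhR-poor diet, with Krt15 at -1.93 and -1.38 and Dst at -1.36 and -1.28. Over all genes 18.4% fell and 16.9% rose on the I3C diet, and 15.7% and 17.7% on the AhR-poor diet. Krt5 and Krt14, keratins of the basal layer, had -0.48 ± 0.10 and -0.34 ± 0.12 on the I3C diet, and the integrins Itga3 and Itgb4 had 0.55 ± 0.13 and 0.32 ± 0.12, all 4 past the test. The median over the 9 was -0.11 on the I3C diet and -0.18 on the AhR-poor diet. The 10 suprabasal markers summed to 40075 to 58106 and 38509 to 53611 CPM on the I3C diet, and to 42564 to 68312 and 26397 to 50046 CPM on the AhR-poor diet. Markers of dermal fibroblasts (10 genes, none at 0 throughout a group) summed to 9.82 to 13.7 and 2.40 to 11.7 CPM on the I3C diet, but to 102.9 to 184 and 279 to 702 CPM on the AhR-poor diet. Neutrophil markers (8 genes) were at 0.861 to 1.95 CPM with vehicle and 44.7 to 74.9 CPM with papain on the I3C diet, with Ly6g at 0 in both groups, and at 4.24 to 5.32 and 93.0 to 649 CPM under AhR-poor feeding, with Ly6g at 0 after vehicle. Monocyte and macrophage markers (8 genes) were at 19.9 to 29.1 and 12.7 to 42.8 CPM, and at 51.3 to 60.6 and 118 to 524 CPM. Erythrocyte markers (5 genes) were at 0.258 to 3.05 and 0.400 to 17.2 CPM on the I3C diet and at 73.2 to 155 and 267 to 1254 CPM on the AhR-poor diet, and endothelial markers (8 genes) at 1.23 to 3.54 and 1.22 to 2.68 CPM, and at 15.1 to 39.0 and 26.5 to 64.8 CPM. Langerhans cell markers (8 genes) were at 351 to 642 and 377 to 783 CPM with I3C and at 870.5 to 978 and 923 to 1134 CPM without it, markers of dendritic epidermal T cells (8 genes) at 90.9 to 120.3 and 174 to 206 CPM, and at 88.9 to 122 and 196 to 260.3 CPM. The single T cell markers differed from their sum. With papain their median log2 fold change was 0.10 on the I3C diet (5 of 8 above 0) and 0.65 on the AhR-poor diet (8 of 8). Without I3C against with it, their median was 0.75 after vehicle (7 of 8 above 0) and 1.33 after papain (8 of 8). Melanocyte markers (6 genes) were at 2.99 to 4.32 and 2.46 to 5.43 CPM with I3C and at 8.60 to 10.8 and 8.02 to 16.4 CPM without it.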

How the data were processed

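The authors deposited raw read counts per gene for 16 libraries (TruSeq Stranded mRNA, paired reads). Their notes and methods name FastQC, STAR on mm10 and DESeq2, whereas the counting tool, annotation and strand setting are not given in the sources used here. Counts were used as deposited. Gene IDs were matched to symbols through the reference annotation (50376 of 50600 IDs). The 22155 genes whose counts summed to 10 or more were fitted with edgeR 4.0.16 in R 4.3.3, with TMM factors, 1 mean per group over all 16 libraries, the robust quasi-likelihood F test and Benjamini-Hochberg adjustment over all genes. Levels are CPM with TMM-scaled library sizes. No 2 libraries of a group agreed within sampling noise (lowest chi-square 7.58 per degree of freedom).

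Per the study's methods the experimental unit was 1 mouse, and mice on 1 diet shared their housing and were not randomised, so that diet and cage cannot be told apart. The members, the gene lists and the rule for named genes (in each comparison the 4 members with the smallest p, with Mki67 and Mcm2, and the 3 smallest of each other list) were chosen with earlier results of these data known. Alternatives were other scalings and filters, DESeq2 1.42.0, fits of the compared groups alone and leaving out each library.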

Additional observations from a re-analysis of the deposited data

Results flagged for a closer look

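A library is listed here where its distance from the nearest other library of its group of 4 exceeded Dixon's critical value. Of 168 groups examined, 18 were listed, and chance alone lists about 1 in 20. T103 (AhR-poor diet, vehicle) was low for 10 of them. It had 44.5 CPM of Mcm4 with the others at 64.1 to 66.3, 34.6 of Mcm5 (others 56.2 to 59.2), 55.3 of Mcm6 (others 83.3 to 88.1) and 4.40 of Cdc6 (others 5.67 to 5.74). It also had 10.4 CPM of Gins2 (others 16.7 to 17.95), 20.6 of Tyms (others 30.6 to 31.96), 36.7 of Bub1b (others 46.8 to 48.6), 33.01 of Cenpf (others 44.6 to 46.9) and 43.5 of Tpx2 (others 53.3 to 55.1), and its summed S phase level was 561 CPM (others 835 to 847). T107 (AhR-poor diet, papain) was low for 4, with 50.3 CPM of Mcm2 (others 65.8 to 66.9), 48.3 of Mcm5 (others 64.2 to 65.9), 67.3 of Mcm6 (others 93.3 to 94.2) and a summed S phase level of 670.2 CPM (others 859.8 to 884). T113 (I3C diet, papain) was high for Cenpe at 31.0 CPM (others 20.8 to 21.9) and Top2a at 190.1 (others 145 to 149.8), and low for Gins2 at 16.2 (others 19.7 to 20.4). T111 (I3C diet, vehicle) was high for Cdc6 at 7.08 CPM (others 5.77 to 5.99).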

How the results depend on the processing

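The 23 other settings were other scaling factors, library size alone, other filters on low counts, DESeq2 and fits on the compared groups alone. They also left out each of the 16 libraries, and T103, T107 and T111 together, chosen after the data were seen. In none of them did the fold change of a called member change sign. In 945 cases a called member kept an adjusted p under 0.05, or a summed role level under library size alone stayed within the SD of its group. Calls that a member gained in another setting are not among these. The 29 lost calls were those of Mcm2 and Ccnb2 on the AhR-poor diet (5 and 12 settings, adjusted p up to 0.105 and 0.122) and of Rrm2 and E2f1 on the I3C diet (2 and 10 settings, up to 0.0610 and 0.122). Among counts at an adjusted p, these moved by more than 1.5 times. Members that rose on the AhR-poor diet at an adjusted p under 0.05 (2) numbered 1 in the fit of the compared groups alone and 1 to 3 with single libraries left out, with 1 without T103, T104, T105 or T112. Members that fell on the I3C diet past the stricter limits (9) numbered 3 to 17 with single libraries left out and 3 without T103, T107 and T111. Members that rose on the I3C diet (1) numbered 2 in the fit of the compared groups alone, and members higher on the AhR-poor diet after papain (0) numbered 3 without T103, T107 and T111. The cause of these moves was not tested. No paired analysis was possible because the groups share no replicate numbers. Depth was not limiting for most members, whereas 4 libraries a group allow no exact permutation p below 0.0286.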
